A study of Drosophila melanogaster with 28 samples.

Results

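Whole dissected ovaries of Drosophila melanogaster were compared with OSS (ovarian somatic sheet) cells, a line kept in culture, by sequencing ribosome-depleted total RNA. The comparison holds 4 of the 28 samples of the series, namely ovary replicates 1 and 2 and OSS replicates 1 and 2. All genes with a unique name in the deposited tables were followed, which gave 13892 genes in each library, while 93 names that stood on several of the 14147 lines were left out. Ovaries came from flies raised at 25 °C on cornmeal and molasses food and fed yeast paste; the labels name neither their strain nor their age. OSS cells were grown at 25 °C in M3 medium with 10% fetal bovine serum, 5% fly extract, insulin and glutathione, and no genotype or gene knockdown is labelled in either group. The labels do not say whether the replicates were separate dissections or cultures, so p-values measure a spread between libraries that may be technical. That spread was estimated over carcass and embryo libraries of the series as well.

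An ovary is a mixed organ. Its germline stem cells divide into cysts of interconnected cells in which the oocyte is fed through ring canals by polyploid nurse cells, and a layer of somatic follicle cells surrounds each cyst, exchanges signals with it and finally secretes the yolk proteins and the eggshell. A muscle sheath, tracheae and blood cells accompany the organ. OSS cells are a single somatic cell type without germ cells, used widely because they carry the somatic branch of the piRNA pathway, in which piwi acts without its germline relatives. In such bulk samples, fewer cells of a type and less RNA per cell cannot be told apart.

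The values are FPKM, read fragments scaled to transcript length and library size, and differences are given as ovary minus OSS on the log2(FPKM + 1) scale, which understates the change of low genes; a value given as "higher by" or "lower, at" is this log2 difference. Of the 13892 genes, 11488 reached an FPKM of 1 in at least 2 of 8 tissue libraries and were tested with limma. The spread was estimated over all 8, with the other tissue libraries (carcass and 0 to 2 h embryo) included. A gene was called at a Benjamini-Hochberg adjusted p below 0.05. The libraries listed 8523 and 8331 genes at 1 FPKM or more in ovary, against 9383 and 9259 in OSS. Replicates correlated at r = 0.987 across genes in ovary and 0.986 in OSS, and the median absolute log2 difference between the replicates of a group was 0.13 in ovary and 0.11 in OSS. This difference was larger in the other tissues that entered the estimate of spread, at 0.35 in carcass and 0.23 in embryo. The spacing of the lowest values put the depth of ovary replicate 1 at 1.48 times that of ovary replicate 2. Against OSS replicate 1 it was 1.32 times. Absolute depth was recorded for the ovary libraries alone, as 11395525 and 6733164 genome-mapped reads. These totals are further apart than 1.48 times, and the reason was not examined.

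Of the genes tested, 41.7% were called, 18.8% as higher in ovary and 23.0% as lower. A log2 difference of at least 1 accompanied the call for 26.5% of genes, 11.4% higher and 15.1% lower. The 2 groups of libraries did not overlap for 80.4% of genes, with ovary above OSS for 33.3% and below it for 47.1%. The change was at least 4 on the log2 scale for 156 genes higher in ovary and 149 lower in ovary, and at least 6 for 60 genes higher and 8 lower, so the extreme changes lay mostly on the ovary side. The median over all genes tested was -0.16. Quantile normalization moved it to -0.04 and median-ratio scaling to -0.09, and small changes should be read against that shift. Of the 4796 calls, 2529 (52.7%) were also made under each of the 11 alternative settings that tested the gene, and the called genes described below belong to these unless a loss is stated. Counts by gene list are given as higher and lower in ovary among the members tested, followed, where leaving out any 1 library moved them, by the range of both counts with 1 left out. Where a scaling moved the split of the calls by more than 10 percentage points, its counts are given too.

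**Figure D1:**
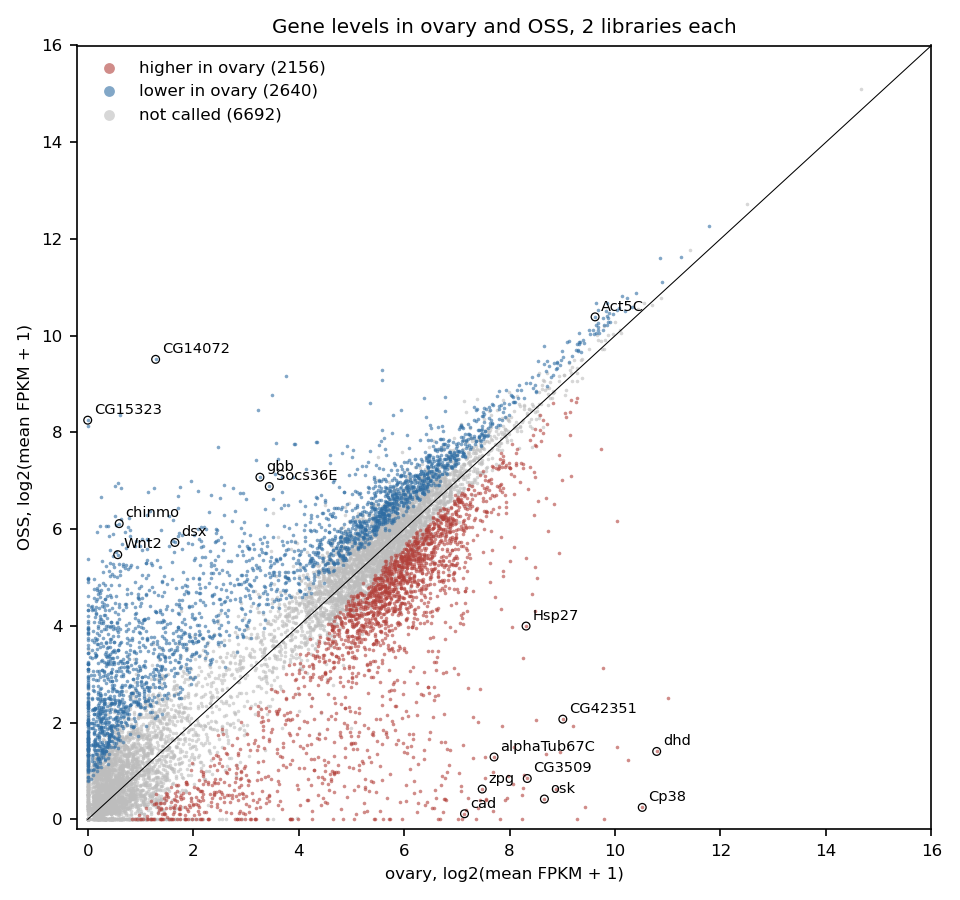
Mean level of each gene tested in ovary (x axis) and OSS (y axis), both as log2(mean FPKM + 1) over 2 libraries; colours mark genes called higher or lower in ovary, and named points are genes described in the text. A long tail of genes lies near 0 on the OSS axis at high ovary levels, as dhd, osk and Cp38 do, while chinmo, Wnt2 and CG14072 lie near 0 on the ovary axis.

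Marker genes were read first. Their lists were chosen with earlier results of these data known, so they describe the sources and do not check the labels. Of the 17 germline markers, 16 were higher in ovary and 1 lower (15 and 0 with 1 left out), with a median log2 difference of 5.38. Their summed level was 3101 and 3199 FPKM in ovary, against 320 and 338 FPKM in OSS, so the list was not absent from OSS. zpg, the innexin of germ cells, had 175 and 180.3 FPKM in ovary, against 0.583 and 0.508 FPKM in OSS. The marker lower in ovary was vls, a methylosome subunit needed for germ plasm. It had 32.6 and 32.5 FPKM in ovary, against 84.7 and 86.3 FPKM in OSS, and the groups did not overlap. Its log2 difference was -1.37, and -1.37 without ovary replicate 1 or 2, -1.38 without OSS replicate 1 and -1.35 without OSS replicate 2. It was not called with 1 library left out, under either scaling, with a pseudocount of 0.1 or without a filter. Of the 11 markers of ovarian somatic cells, 6 were lower in ovary and 2 higher (median -1.74; 1 and 5 to 6 with 1 left out). Among them fs(1)Yb, a Tudor and helicase protein of somatic piRNA bodies, had 1.26 and 0.708 FPKM in ovary, against 49.4 and 48.6 FPKM in OSS. Markers of this list that did not pass the test included Fas3, an adhesion molecule of follicle cells, with 34.6 and 41.2 FPKM in ovary, against 34.2 and 29.8 FPKM in OSS, and zfh1, a transcription factor, with 16.2 and 18.4 FPKM in ovary, against 15.6 and 15.6 FPKM in OSS. The follicle-cell transcription factor peb went the other way with 9.54 and 10.2 FPKM in ovary, against 0.342 and 0.246 FPKM in OSS, a difference of 3.07 (SE 0.25, adjusted p = 0.000132).

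RNA of other cell types also differed. The summed level of the 14 muscle markers was 389.8 and 410.4 FPKM in ovary, against 192 and 172 FPKM in OSS, and 11 were higher in ovary and 3 lower (9 to 11 and 2 with 1 left out). The myosin heavy chain gene Mhc had 22.8 and 23 FPKM in ovary, against 0.616 and 0.432 FPKM in OSS, so it was detected in OSS only at a low level. TpnC41C, a troponin C, and sls, the titin-like sallimus, were lower in ovary, with 2.22 and 3.27 in ovary and 52.3 and 50.9 in OSS FPKM for TpnC41C. The hemocyte list had 2 members higher and 4 lower (1 and 3 with 1 left out). Its sums were 141 and 142 FPKM in ovary, against 79.1 and 78.7 FPKM in OSS, and crq, a scavenger receptor, made most of the ovary sum with 101 and 97.8 FPKM in ovary, against 32.4 and 34.4 FPKM in OSS. The fat body list summed to 77.4 and 56.1 FPKM in ovary, against 72.1 and 66.3 FPKM in OSS, with 3 members higher and 1 lower (2 to 3 and 0 to 1 with 1 left out). The gut list had 2 members higher and 1 lower (0 to 2 and 1 with 1 left out). Its sums went the other way, at 46.4 and 36.1 FPKM in ovary, against 109.7 and 109.1 FPKM in OSS. The neuron list had 2 higher and 3 lower (2 to 3 and 2 to 4 with 1 left out). There too the sums were opposite to the calls, at 119.7 and 116.2 FPKM in ovary, against 63.2 and 62.9 FPKM in OSS. The tracheal list had 0 higher and 2 lower (0 and 1 to 2 with 1 left out; 1 against 1 when quantile-normalized). The part of these other cells in any gene below was not tested.

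**Figure D2:**
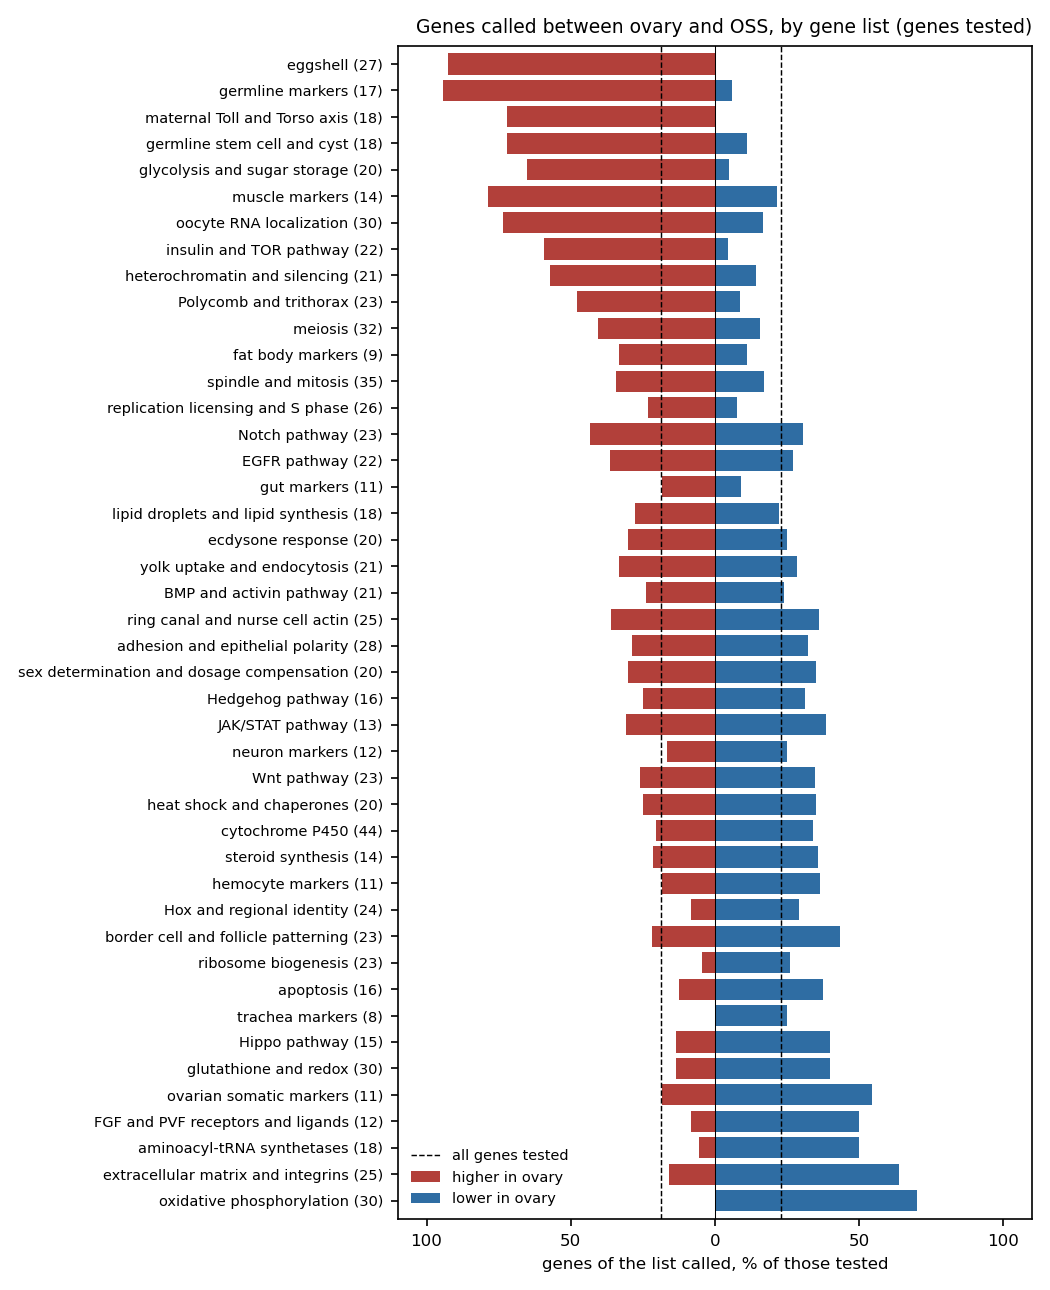
Share of the tested genes of each list that were called higher in ovary (bars to the left) or lower in ovary (bars to the right), in percent; the number of genes tested stands beside each list, and dashed lines mark the share among all genes, 18.8% higher and 23.0% lower. The eggshell and germline lists lie far to the left, and oxidative phosphorylation and the extracellular matrix to the right.

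Genes that localize RNA in the oocyte and hold its translation in check were mostly higher in ovary. Of 30 tested, 22 were higher and 5 lower (21 and 2 to 3 with 1 left out), beside 18.8% and 23.0% of all genes, and the median log2 difference was 0.85. swa (swallow), which anchors bcd RNA, had 189 and 179 FPKM in ovary, against 0.862 and 0.751 FPKM in OSS, and exu, which carries that RNA, had 229 and 230.1 FPKM in ovary, against 4.36 and 1.29 FPKM in OSS. The cargo itself, bcd, had 69.8 and 71.9 FPKM in ovary, against 2.37 and 1.93 FPKM in OSS. None of these ranges overlapped, which was also so for 80.4% of all genes tested. cup, which blocks the cap-binding factor on osk RNA, had 127 and 138 FPKM in ovary, against 16.5 and 15.1 FPKM in OSS. The smg repressor had 321 and 315 FPKM in ovary, against 39.8 and 42.7 FPKM in OSS, and the general repressors me31B and tral were well represented in both sources: me31B had 843 and 869 FPKM in ovary, against 185 and 217 FPKM in OSS, a difference of 2.09 (SE 0.12, adjusted p = 3.47e-05). The motor adaptors differed less, at 0.67 for BicD and 1.09 for egl. mago, a part of the exon junction complex used in osk transport, was lower in ovary with 87.4 and 81.8 FPKM in ovary, against 184 and 173 FPKM in OSS (-1.07 (SE 0.15, adjusted p = 0.00153)), and so was the Y-box protein yps with 151 and 148 FPKM in ovary, against 243 and 253 FPKM in OSS.

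Patterning of the egg's body axes is prepared in the ovary by maternal receptors and by proteins laid into the eggshell. Of 18 genes of the Toll and Torso systems, 13 were higher in ovary, with a median of 1.57 (11 to 12 and 0 with 1 left out). The receptors differed in degree. tor, the terminal receptor kinase, had 66 and 70.2 FPKM in ovary, against 1.07 and 1.03 FPKM in OSS, and Tl, the dorsoventral receptor, had 139 and 145 FPKM in ovary, against 20.6 and 21.9 FPKM in OSS. The Toll ligand spz and the inhibitor cact were higher by 1.81 and 1.26. ndl, a follicle-cell protease that starts the dorsoventral cascade, had 50.6 and 28.3 FPKM in ovary, against 0.427 and 0.559 FPKM in OSS. The protease gene snk had 15.4 and 12.1 in ovary and 0 and 0 in OSS FPKM and so was listed at 0 in both OSS libraries. fs(1)M3 and fs(1)N, eggshell proteins needed for Torso activation, had 104 and 112 in ovary and 0.485 and 0.19 in OSS and 96.7 and 102 in ovary and 5.17 and 4.77 in OSS FPKM. CG42600, named closca in the RefSeq annotation and acting with them, had 102 and 105 FPKM in ovary, against 2.32 and 1.77 FPKM in OSS.

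Meiotic genes split. Of 32 tested of 35 listed, 13 were higher in ovary and 5 lower, with a median of 0.44 (8 to 9 and 3 to 5 with 1 left out; 14 against 3 when quantile-normalized). mtrm, an inhibitor of Polo kinase in the oocyte, had 365 and 356 FPKM in ovary, against 4.71 and 1.54 FPKM in OSS (6.57 (SE 0.38, adjusted p = 3.31e-05)). The kinase gene mos had 81 and 82.6 FPKM in ovary, against 1.84 and 1.56 FPKM in OSS. The meiotic Cdc25 phosphatase twe had 92.6 and 88.6 FPKM in ovary, against 15.8 and 15.7 FPKM in OSS. The synaptonemal complex, the protein ladder between paired homologous chromosomes, was represented on both sides. Its transverse filament gene c(3)G had 52.6 and 52.3 FPKM in ovary, against 5.26 and 4.01 FPKM in OSS and its lateral element gene c(2)M had 31.6 and 32.2 FPKM in ovary, against 1.31 and 0.837 FPKM in OSS. In contrast cona, a component of its central region, was lower in ovary with 3.61 and 3.55 FPKM in ovary, against 68.3 and 61.8 FPKM in OSS; the groups did not overlap, but the call was lost with a pseudocount of 0.1. Crossover-associated RING finger genes were found on both sides as well. CG31053, named nenya in the RefSeq annotation, had 22.1 and 24.1 FPKM in ovary, against 1.27 and 0.552 FPKM in OSS, a difference of 3.68 (SE 0.40, adjusted p = 0.000427). CG2709, named vilya there, had 0.382 and 0.564 FPKM in ovary, against 32.3 and 30.4 FPKM in OSS, a difference of -4.46 (SE 0.47, adjusted p = 0.000745). The stem cell and cyst list, which overlaps the germline markers, had 13 of 18 higher and 2 lower (11 to 12 and 1 with 1 left out). There bam, the switch from stem cell to cyst, had 51.7 and 48.9 FPKM in ovary, against 2.77 and 1.71 FPKM in OSS, whereas its partner bgcn was lower in ovary with 0.571 and 0.612 FPKM in ovary, against 3.43 and 3.94 FPKM in OSS, a call that was lost after quantile normalization.

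Actin regulators were evenly divided, with 9 of 25 higher and 9 lower (7 to 8 and 7 to 8 with 1 left out). The actin nucleators spir and capu, which build the cytoplasmic mesh of the oocyte, were higher in ovary: spir had 53.9 and 52.5 FPKM in ovary, against 5.48 and 5.27 FPKM in OSS and capu had 16.7 and 15.8 FPKM in ovary, against 2.86 and 3.31 FPKM in OSS. The bundling proteins sn (fascin) and qua were higher by 2.78 and 1.58. Src64B, the kinase that lets ring canals grow, had 93.4 and 88.6 FPKM in ovary, against 16.5 and 18.2 FPKM in OSS. Other members lay on the other side or did not pass the test, as zip, the myosin heavy chain partner of sqh, with 62.5 and 66.6 FPKM in ovary, against 70.3 and 78.5 FPKM in OSS (adjusted p = 0.161). sqh, the myosin regulatory light chain, had 108 and 109.6 FPKM in ovary, against 439 and 416 FPKM in OSS, a difference of -1.96 (SE 0.08, adjusted p = 1.02e-05). Profilin (chic) had 375 and 367 FPKM in ovary, against 699 and 724 FPKM in OSS, and the cofilin gene tsr and the filamin gene cher were lower, at -0.55 and -0.95. kel, a ring canal component itself, was lower in ovary with 31 and 31.4 FPKM in ovary, against 61.6 and 66.5 FPKM in OSS.

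Gene families contained members on opposite sides. For paralogs of similar sequence no source used here says how reads were divided among copies or whether strand was used in counting, so near-identical and overlapping genes are uncertain. Of 10 tubulin genes, 3 were higher in ovary and 4 lower (2 to 3 and 4 with 1 left out). The maternal alphaTub67C had 208 and 208 FPKM in ovary, against 1.68 and 1.22 FPKM in OSS, while the ubiquitous alphaTub84B had 406 and 395 FPKM in ovary, against 891 and 887 FPKM in OSS. The near-identical alphaTub84D was lower in ovary too, at -1.22, and betaTub60D had 43.1 and 50.3 FPKM in ovary, against 259.9 and 265 FPKM in OSS. Among the gamma-tubulins, which nucleate microtubules, the maternal gammaTub37C had 87.5 and 78.7 FPKM in ovary, against 0.199 and 0.259 FPKM in OSS, and gammaTub23C had 47.9 and 43.4 FPKM in ovary, against 63.9 and 60.7 FPKM in OSS and was not called (adjusted p = 0.0617).

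Members of smaller families also differed from each other. The thioredoxin dhd had 1824 and 1716 FPKM in ovary, against 1.43 and 1.87 FPKM in OSS, while the log2 difference of Trx-2 was 0.49. Among innexins, the gap junction proteins, inx3 was lower in ovary with 36.8 and 34.4 FPKM in ovary, against 155 and 160.3 FPKM in OSS, opposite to zpg. RpS5b, a paralog of ribosomal protein S5, had 378 and 354 FPKM in ovary, against 31.9 and 29.9 FPKM in OSS, a difference of 3.53 (SE 0.25, adjusted p = 7.4e-05), while its partner RpS5a had 482 and 521 FPKM in ovary, against 732 and 705 FPKM in OSS. Of the 19 ribosomal paralogs tested, these included, 2 were higher in ovary and 12 lower (1 to 2 and 4 to 7 with 1 left out; 3 against 7 when quantile-normalized). The embryonic linker histone CG3509, named BigH1 in the RefSeq annotation, had 328 and 317 FPKM in ovary, against 0.965 and 0.63 FPKM in OSS. The replacement histone gene His3.3A was lower in ovary, at -1.05. Argonaute genes lay on both sides: AGO3 and aub of the germline were higher by 4.49 and 2.31, piwi had 95.2 and 94.8 FPKM in ovary, against 189.9 and 205 FPKM in OSS, and the small interfering RNA effector AGO2 was lower, at -0.94 while the microRNA effector AGO1 was higher by 1.02. Of 12 cyclins, 8 were higher in ovary and 1 lower (8 and 0 with 1 left out). CycJ, a cyclin of the ovary and early embryo, had 66.1 and 69.1 FPKM in ovary, against 2.43 and 2.41 FPKM in OSS. Act5C, the main cytoplasmic actin, was lower, at -0.77; the calls of the other actins, which are close in sequence, were each lost under at least 1 alternative.

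**Figure D3:**
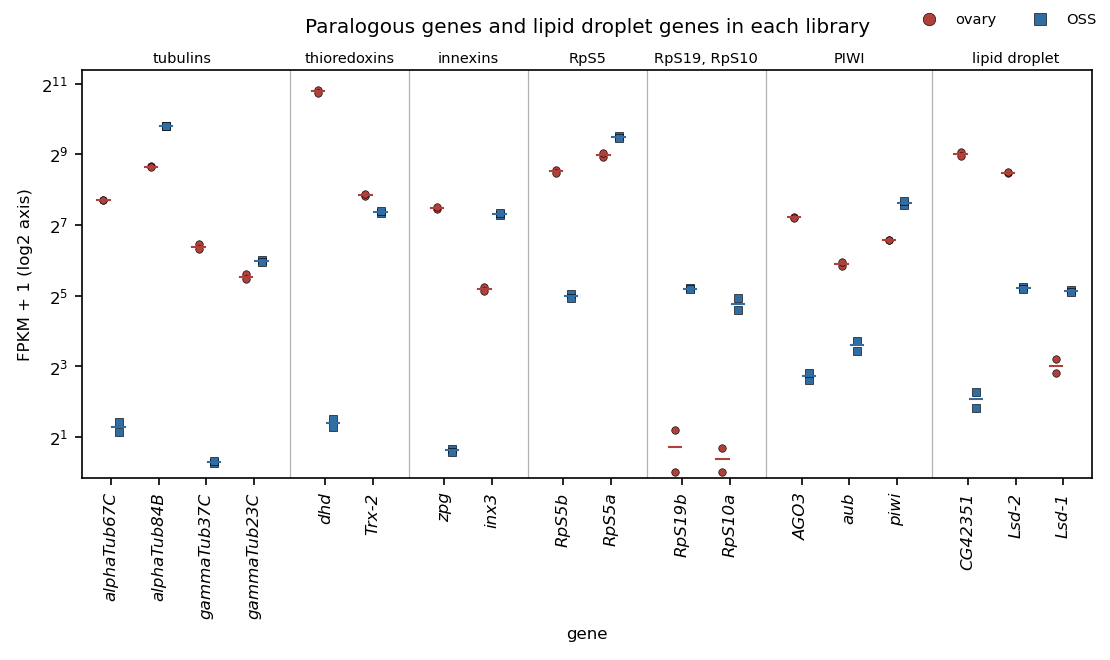
FPKM + 1 (log2 axis) of paired or grouped paralogs in each library, ovary points left of OSS points for every gene; the short line is the mean of 2 libraries. alphaTub67C, gammaTub37C, dhd, zpg and RpS5b lie higher in ovary, while alphaTub84B, inx3, RpS5a and piwi lie lower in ovary.

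Signalling pathways held ligands on either side. In the Wnt pathway 6 of 23 genes were higher in ovary and 8 lower (4 to 5 and 7 with 1 left out), a balance of 5 against 5 with quantile-normalized values and 7 against 7 with median-ratio-scaled ones. Of the ligands in the list, Wnt2, Wnt4, Wnt6 and Wnt10 were lower in ovary, with the call of Wnt6 lost after quantile normalization, and wg and Wnt5 were not called. Wnt2 had 0.681 and 0.287 FPKM in ovary, against 46.2 and 40.6 FPKM in OSS (-4.91 (SE 0.40, adjusted p = 0.000126)), Wnt10 had 0.391 and 0.385 FPKM in ovary, against 40.6 and 34.6 FPKM in OSS and Wnt4, which acts in the escort cells and follicle cells of the germarium, had 1.14 and 0.562 FPKM in ovary, against 31.9 and 26 FPKM in OSS. These 3 were at most 1.14 FPKM in ovary. wls, which carries Wnt proteins to the cell surface, was lower in ovary with 44.6 and 43.7 FPKM in ovary, against 106 and 115 FPKM in OSS, and arm, the fly beta-catenin, had 162 and 158 FPKM in ovary, against 306 and 305 FPKM in OSS. The receptors fz, fz3 and fz4 were higher in ovary by 1.22, 1.42 and 1.05, as was Axn, the scaffold of the beta-catenin destruction complex, by 1.03. The receptor fz2 was lower, at -1.65, a call lost after quantile normalization.

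The Hedgehog pathway had 4 of 16 tested genes higher and 5 lower (3 and 4 with 1 left out; 5 against 5 when quantile-normalized, 6 against 5 when scaled by median ratios). The ligand gene hh had 0.349 and 0.758 FPKM in ovary, against 12.3 and 11 FPKM in OSS, a difference of -3.04 (SE 0.31, adjusted p = 0.00033). Its receptor and target ptc had 0.78 and 0.767 in ovary and 37.4 and 36.7 in OSS FPKM. The transcription factor ci was also lower in ovary, with 8.4 and 5.68 FPKM in ovary, against 32 and 32.8 FPKM in OSS, a call lost with a pseudocount of 0.1. The signal transducer smo was higher in ovary with 42.4 and 40.8 FPKM in ovary, against 20.1 and 20.1 FPKM in OSS. rdx, the adaptor through which Ci is degraded, had 333 and 355 FPKM in ovary, against 23.5 and 24.8 FPKM in OSS, the largest difference of the pathway in that direction (3.78 (SE 0.09, adjusted p = 1.73e-06)).

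Notch ligands diverged. In the pathway 10 of 23 tested genes were higher in ovary and 7 lower (6 to 8 and 5 with 1 left out), with 4 further E(spl) complex genes below the filter; after quantile normalization the split was 9 against 8. Dl, the ligand that germ cells present to follicle cells, had 49.4 and 45.9 FPKM in ovary, against 11.7 and 11.4 FPKM in OSS. The other ligand, Ser, had 0.185 and 0.0546 FPKM in ovary, against 19.2 and 17.1 FPKM in OSS. Their groups did not overlap in either case, and the directions were opposite. fng, the glycosyltransferase that tunes the receptor between these ligands, had 11.1 and 17.6 FPKM in ovary, against 217 and 213 FPKM in OSS (-3.85 (SE 0.22, adjusted p = 3.21e-05)). The antagonist numb and the protease gene kuz were higher in ovary by 2.45 and 1.5, and so was the pathway's DNA-binding factor Su(H), by 1.21. Among the targets of the complex that were tested, HLHm3 had 4.9 and 4.82 FPKM in ovary, against 35.4 and 34.4 FPKM in OSS and HLHmbeta had 3.32 and 2.61 FPKM in ovary, against 12.3 and 11.4 FPKM in OSS, both lower in ovary.

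In the EGF receptor pathway 8 of 22 were higher and 6 lower (5 to 7 and 5 to 6 with 1 left out). The receptor Egfr had 12.4 and 11.2 FPKM in ovary, against 52.5 and 54.1 FPKM in OSS, and spi, its ligand, had 80 and 83.1 FPKM in ovary, against 146 and 139 FPKM in OSS. The oocyte ligand grk did not pass the test, with 21.2 and 26.4 FPKM in ovary, against 19.5 and 24.1 FPKM in OSS (adjusted p = 0.712), although it is known as a germline signal to follicle cells; the ranges of the 2 sources overlapped. The rhomboid proteases that release EGF ligands went opposite ways. stet, which acts in germ cells, had 95.1 and 91.9 FPKM in ovary, against 0.154 and 0.202 FPKM in OSS, a difference of 6.33 (SE 0.28, adjusted p = 1.33e-05). rho, which acts in follicle cells, had 2.52 and 3.35 FPKM in ovary, against 19.3 and 21.5 FPKM in OSS, a difference of -2.45 (SE 0.23, adjusted p = 0.000244). The kinase rl (ERK) and the phosphatase csw were higher in ovary by 0.80 and 1.01.

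BMP and activin genes were balanced, 5 higher and 5 lower of 21 (3 and 3 with 1 left out; 7 against 4 when scaled by median ratios). gbb, a BMP ligand, had 9.46 and 7.78 FPKM in ovary, against 136 and 131 FPKM in OSS, a difference of -3.81 (SE 0.24, adjusted p = 4.21e-05), and cv-2, an extracellular BMP-binding protein, had 3.07 and 3.83 FPKM in ovary, against 64.4 and 65.1 FPKM in OSS. dpp, the stem cell niche ligand, was not called, with 3.22 and 3.54 FPKM in ovary, against 9.77 and 9.38 FPKM in OSS (adjusted p = 0.0837). The receptor tkv and its effector Mad were higher in ovary by 1.38 and 0.66. The activin-like ligand mav had 74.7 and 70 FPKM in ovary, against 17.3 and 19.2 FPKM in OSS, so ligands of this family lay on both sides.

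The JAK/STAT genes with the largest differences were lower in ovary. The ligand gene upd3 had 0.49 and 0.723 FPKM in ovary, against 7.77 and 8.12 FPKM in OSS, the feedback inhibitor Socs36E had 6.48 and 13.3 FPKM in ovary, against 119 and 116 FPKM in OSS, and chinmo, a zinc finger factor that responds to the pathway in testis somatic cells, had 0.447 and 0.578 FPKM in ovary, against 68.8 and 67.8 FPKM in OSS. The difference for chinmo was -5.52 (SE 0.27, adjusted p = 1.91e-05). The other ligand genes held less firmly, since os (upd1) was not called and upd2 lost its call under most alternatives. Ptp61F, a phosphatase that dampens the pathway, was higher in ovary with 123 and 129 FPKM in ovary, against 42.6 and 42.9 FPKM in OSS, and Su(var)2-10, a SUMO ligase, was higher by 1.05. In all, 4 of 13 genes were higher and 5 lower (3 to 4 and 3 to 4 with 1 left out), and the counts were 5 against 4 after either scaling.

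FGF, PVF and Alk genes leaned to OSS. Of 12 these genes, 6 were lower in ovary and 1 was higher (median -1.02; 2 against 5 when quantile-normalized). Pvf2 had 0.853 and 0.472 FPKM in ovary, against 40 and 35.1 FPKM in OSS and bnl, an FGF, had 0.98 and 0.384 FPKM in ovary, against 11.8 and 13.1 FPKM in OSS. The exception was Pvf1, which the oocyte uses to guide border cells, with 33.9 and 34.8 FPKM in ovary, against 4.54 and 3.28 FPKM in OSS (2.86 (SE 0.20, adjusted p = 6.28e-05)). The shared receptor Pvr had 10.2 and 14.7 FPKM in ovary, against 30.6 and 32.6 FPKM in OSS. jeb and its receptor Alk were low throughout, with 0.0927 and 0.0684 in ovary and 2.39 and 2.56 in OSS FPKM for jeb and 0.24 and 0.177 in ovary and 2.66 and 2.36 in OSS FPKM for Alk. In the Hippo pathway genes of the planar polarity branch were lower in ovary. fj, a Golgi kinase acting on its cadherins, had 0.178 and 0.349 FPKM in ovary, against 23.4 and 21.6 FPKM in OSS, d (dachs) had 0.65 and 0.269 FPKM in ovary, against 7.4 and 6.37 FPKM in OSS, and ds, the cadherin itself, was at a low level with 0.438 and 0.168 FPKM in ovary, against 2.96 and 3.11 FPKM in OSS. The kinase wts was higher in ovary with 37.9 and 39.7 FPKM in ovary, against 13.5 and 13 FPKM in OSS, as was Mer by 0.83; these were the 2 genes higher, against 6 lower of 15 (2 and 5 with 1 left out). After quantile normalization the counts were 4 against 5, and after median-ratio scaling 3 against 5.

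**Figure D4:**
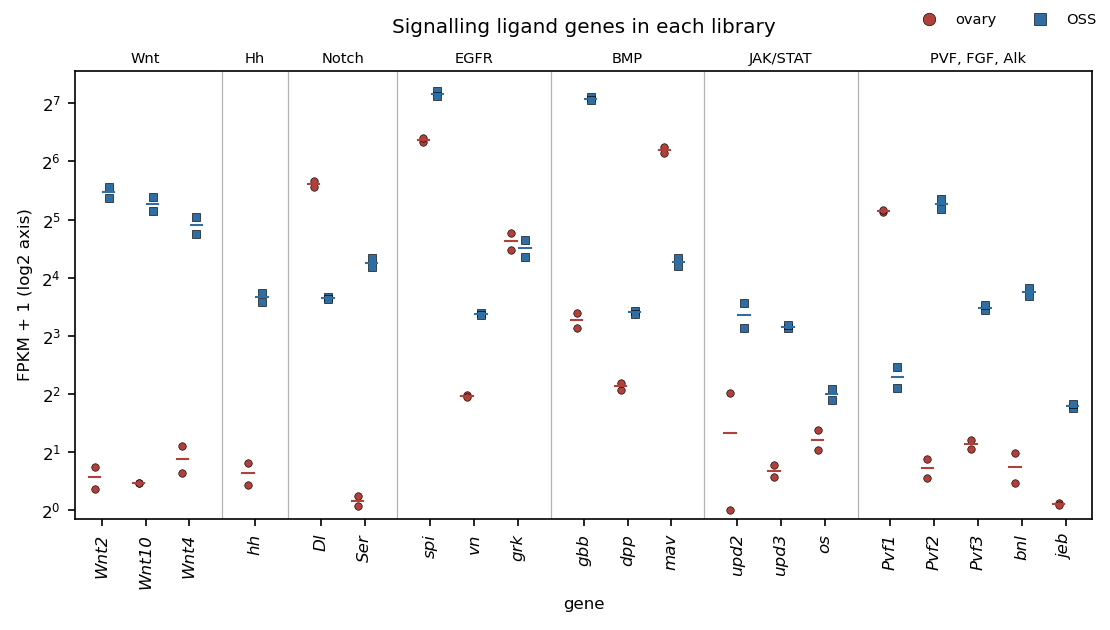
FPKM + 1 (log2 axis) of signalling ligand genes in each library, ovary points left of OSS points; the short line is the mean of 2 libraries. Wnt2, Wnt10, Wnt4, Pvf2 and gbb lie far lower in ovary, Dl, Pvf1 and mav lie higher in ovary, and the grk points of the 2 sources overlap.

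Extracellular matrix genes were mostly lower in ovary. Of 25 tested, 16 were lower and 4 higher (4 and 12 to 15 with 1 left out), with a median of -0.92. Basement membrane is built of laminins, nidogen and type IV collagen, and these did not move together. Ndg (nidogen) had 0.362 and 0.333 FPKM in ovary, against 37.5 and 39.3 FPKM in OSS, a difference of -4.87 (SE 0.23, adjusted p = 1.82e-05). The laminin chain LanA had 25 and 21.4 FPKM in ovary, against 158 and 169 FPKM in OSS, and LanB1, LanB2 and wb were lower, at -1.86, -1.82 and -3.09. BM-40-SPARC, a collagen-binding chaperone-like protein, had 19.8 and 18.7 FPKM in ovary, against 225 and 216 FPKM in OSS. The collagen chains went the other way. Cg25C had 25.6 and 27.4 FPKM in ovary, against 2.14 and 2.56 FPKM in OSS and vkg (viking) had 28.6 and 25.3 FPKM in ovary, against 1.92 and 2.62 FPKM in OSS, with no overlap. Their differences were 3.04 and 3.1, with adjusted p-values of 8.19e-05 for Cg25C and 0.000111 for vkg. The protease Mmp1 had 2.52 and 3.68 FPKM in ovary, against 42.4 and 40.9 FPKM in OSS. On the cell side, the integrin chain if had 4.74 and 5.13 FPKM in ovary, against 45.7 and 48 FPKM in OSS, its beta partner mys was lower, at -0.79, and the linkers Ilk and rhea (talin) were lower, at -0.82 and -0.69.

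Junction and polarity genes lay on both sides, 8 higher and 9 lower of 28 (6 to 7 and 5 to 6 with 1 left out). Among septate junction genes, Gli (gliotactin) had 6.84 and 7.72 FPKM in ovary, against 28 and 28.7 FPKM in OSS, cora had 17.3 and 22.3 FPKM in ovary, against 51.4 and 49.6 FPKM in OSS, and sinu, a claudin, and dlg1 were lower, at -0.69 and -0.48. Fas2, an adhesion molecule of the follicular layer, had 16 and 17.4 FPKM in ovary, against 147 and 153 FPKM in OSS (-3.09 (SE 0.17, adjusted p = 2.84e-05)). Of apical and adherens junction genes, crb was higher in ovary with 42.3 and 46.5 FPKM in ovary, against 18.7 and 17.3 FPKM in OSS, and par-6, l(2)gl, p120ctn and alpha-Cat were higher by 1.17, 0.87, 0.74 and 0.66. The cadherin gene shg was not called, with 49.3 and 51.7 FPKM in ovary, against 40.9 and 47.3 FPKM in OSS (adjusted p = 0.246), and arm, which binds it, was lower. The quantile-normalized counts were 8 against 12.

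Sex determination and dosage compensation genes had 6 of 20 higher and 7 lower (5 and 6 with 1 left out), or 9 against 7 after either scaling. The somatic sex effectors dsx and fru were lower in ovary. dsx had 2.62 and 1.67 FPKM in ovary, against 51.6 and 52.3 FPKM in OSS, a difference of -4.09 (SE 0.30, adjusted p = 7.9e-05), and fru had 4.0 and 5.53 FPKM in ovary, against 56.2 and 55.8 FPKM in OSS. The non-coding RNAs of the male dosage compensation complex were detected in OSS as well. roX1 had 0.796 and 1.31 FPKM in ovary, against 43.5 and 49.4 FPKM in OSS, and roX2 had 0.183 and 0.786 FPKM in ovary, against 5.54 and 11.2 FPKM in OSS. Of the proteins of that complex, msl-1 was higher in ovary with 109.9 and 106 FPKM in ovary, against 38.7 and 36.3 FPKM in OSS, and msl-2, which Sxl represses in females, was lower with 5.28 and 3.05 FPKM in ovary, against 17 and 16 FPKM in OSS, a call lost after quantile normalization. Sxl had 166 and 179 FPKM in ovary, against 103 and 111 FPKM in OSS. vir, which acts in Sxl splicing, was lower, at -1.09. The female germline sex genes ovo and otu were at most 0.577 FPKM in OSS.

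Regional identity factors differed one by one. cad, whose maternal RNA forms a gradient in the embryo, had 138 and 143 FPKM in ovary, against 0 and 0.169 FPKM in OSS. In the opposite direction bab2, a terminal filament factor, had 1.09 and 1.25 FPKM in ovary, against 51.9 and 57.2 FPKM in OSS, the homeobox gene so had 2.18 and 1.91 FPKM in ovary, against 55.4 and 50.6 FPKM in OSS and the zinc finger gene tsh had 1.63 and 2.0 FPKM in ovary, against 26.2 and 30.1 FPKM in OSS. Of 24 Hox and regional genes tested of 28, 2 were higher and 7 lower (1 to 2 and 3 to 4 with 1 left out), counts that became 5 against 5 after quantile normalization. Genes of follicle cell patterning had 5 of 23 higher and 10 lower (4 to 5 and 8 to 10 with 1 left out; 7 against 9 when quantile-normalized). There the border cell transcription factor slbo was low in both sources (0.92 and 0.679 in ovary and 1.52 and 0.794 in OSS FPKM) and not called. sim had 18 and 19.1 FPKM in ovary, against 1.07 and 1.0 FPKM in OSS and ttk, a repressor active in late follicle cells, had 99.4 and 97.3 FPKM in ovary, against 34.8 and 39.3 FPKM in OSS.

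The insulin and TOR list leaned to the ovary, with 13 of 22 higher and 1 lower (6 to 7 and 0 with 1 left out), and the median was 0.63. InR, the receptor, had 24.3 and 29.1 FPKM in ovary, against 6.67 and 6.8 FPKM in OSS, and foxo, the transcription factor it inhibits, had 51.9 and 51.6 FPKM in ovary, against 21.3 and 17 FPKM in OSS. The adaptor Pi3K21B was higher by 1.16. CG14059, named Ilp8 in the RefSeq annotation and encoding a relaxin-like peptide, had 144 and 145 FPKM in ovary, against 26.6 and 26.1 FPKM in OSS. Ecdysone genes had 6 of 20 higher and 5 lower (3 to 4 and 2 to 4 with 1 left out). The receptor EcR had 56.4 and 53.9 FPKM in ovary, against 23.9 and 23.1 FPKM in OSS, the nuclear receptor ftz-f1 had 83.9 and 79.5 FPKM in ovary, against 20.8 and 21.9 FPKM in OSS, and E23, an ecdysone-inducible transporter, was higher by 1.39. Steroid synthesis had 3 of 14 higher and 5 lower (2 to 3 and 0 to 2 with 1 left out), and 4 against 3 after quantile normalization or 3 against 2 after median-ratio scaling. There Npc2a, a sterol carrier, had 157 and 132 FPKM in ovary, against 53.7 and 48.8 FPKM in OSS and mld, a zinc finger regulator of the pathway, was higher by 0.96.

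Of 20 genes of glycolysis and sugar storage, 13 were higher in ovary and 1 lower (8 to 9 and 1 with 1 left out), with a median of 0.78. Hex-A, the hexokinase, had 104 and 112 FPKM in ovary, against 23.7 and 25.5 FPKM in OSS (2.09 (SE 0.14, adjusted p = 5.9e-05)). Glycogen was represented on both arms of its turnover, with GlyP, the phosphorylase, at 117 and 111 in ovary and 34.1 and 30.6 in OSS FPKM and CG6904, the synthase (Glys in the RefSeq annotation), at 101 and 99.1 in ovary and 30.5 and 28.4 in OSS FPKM. Pfk and Tpi were higher by 0.91 and 0.99. The gene lower in ovary was ImpL3, lactate dehydrogenase, with 0.667 and 0.738 FPKM in ovary, against 69.3 and 60.4 FPKM in OSS, a difference of -5.27 (SE 0.36, adjusted p = 5.92e-05). Of 30 subunits of oxidative phosphorylation, 21 were lower in ovary (median -0.64, against -0.16 for all genes). The lower count was 12 to 15 with 1 library left out, and 15 after median-ratio scaling. RFeSP, the Rieske subunit of complex III, had 108 and 104 FPKM in ovary, against 252 and 267 FPKM in OSS, SdhC of complex II had 42 and 39 FPKM in ovary, against 91.6 and 92.7 FPKM in OSS, and ND75 of complex I and cype of complex IV were lower, at -0.81 and -0.82.

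Genes of lipid storage and synthesis lay on both sides. CG42351, the lipid droplet protein named Jabba in the RefSeq annotation, had 535 and 495 FPKM in ovary, against 2.56 and 3.85 FPKM in OSS, a difference of 6.95 (SE 0.27, adjusted p = 7.78e-06). Lsd-2, a perilipin, had 356 and 361 FPKM in ovary, against 37 and 35.3 FPKM in OSS, and the lipase bmm had 71.1 and 76.5 FPKM in ovary, against 14.5 and 14.6 FPKM in OSS. The other perilipin, Lsd-1, was lower in ovary with 8.28 and 5.98 FPKM in ovary, against 35 and 33.5 FPKM in OSS, a call lost after quantile normalization. HLH106, the fly SREBP and a regulator of lipid synthesis, was also lower in ovary with 58.1 and 63.4 FPKM in ovary, against 135 and 138 FPKM in OSS. The list as a whole had 5 of 18 higher and 4 lower (3 and 3 to 4 with 1 left out). Among endocytic genes yl, the yolk receptor of the oocyte, had 259 and 267 FPKM in ovary, against 15.5 and 14.2 FPKM in OSS, whereas the cubilin-like receptors CG32702 and CG42255 were lower in ovary, with 4.23 and 3.93 in ovary and 33.3 and 33.1 in OSS FPKM for CG32702 (-2.75 (SE 0.29, adjusted p = 0.00037)). The coated-vesicle genes shi (dynamin) and lqf (epsin) were higher by 0.57 and 0.98.

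More detoxification genes were called lower in ovary than higher. Of 44 cytochrome P450 genes tested of 47 listed, 9 were higher and 15 lower, beside 18.8% and 23.0% of all genes. Their median was -0.23, near the -0.16 of all genes. Here the counts were 3 to 4 against 11 to 12 with 1 library left out and 10 against 11 after quantile normalization. Cyp9c1 had 3.87 and 2.66 FPKM in ovary, against 109 and 111 FPKM in OSS, Cyp12e1 had 1.67 and 0.412 FPKM in ovary, against 53.8 and 55.9 FPKM in OSS and Cyp6a13 had 1.37 and 1.01 FPKM in ovary, against 40.8 and 39.6 FPKM in OSS. Each of these was at most 3.87 FPKM in ovary. Cyp4g1, which makes cuticular hydrocarbons in oenocytes, was higher in ovary with 53.4 and 27.9 FPKM in ovary, against 2.4 and 0.165 FPKM in OSS, and Cyp4s3 had 28.2 and 27.8 FPKM in ovary, against 0.769 and 0.437 FPKM in OSS. In the glutathione and redox list 4 of 30 were higher and 12 lower (3 to 4 and 5 to 7 with 1 left out; 5 against 8 when scaled by median ratios). Pxt, a cyclooxygenase-like peroxidase of the ovary, had 183 and 190.5 FPKM in ovary, against 0.624 and 0 FPKM in OSS, a difference of 7.2 (SE 0.27, adjusted p = 7.7e-06). The transferases GstE2 and GstD9 were lower in ovary; GstE2 had 1.16 and 1.71 FPKM in ovary, against 18.4 and 18.5 FPKM in OSS. The culture medium contained glutathione, and its part in these levels cannot be told apart from the cell type.

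Small heat shock genes lay on both sides. Hsp27 had 309 and 325 FPKM in ovary, against 16.2 and 13.8 FPKM in OSS and Hsp26 had 544 and 607 FPKM in ovary, against 136 and 134 FPKM in OSS, both higher in ovary; they are known to be expressed in the germline without heat. Hsp67Ba went the other way with 2.97 and 3.63 FPKM in ovary, against 59.4 and 50 FPKM in OSS. Constitutive chaperones lower in ovary by smaller amounts included Hsp83 with 799.9 and 828 FPKM in ovary, against 1484 and 1456 FPKM in OSS and Hsc70-4 with 880 and 935 in ovary and 1476 and 1445 in OSS FPKM. Of 20 chaperones, 5 were higher and 7 lower (2 to 5 and 4 to 5 with 1 left out). In the translation apparatus, 9 of 18 aminoacyl-tRNA synthetases were lower in ovary and 1, Aats-ile, was higher. With 1 library left out 3 to 4 were lower, Aats-val among them with 64.9 and 64.4 FPKM in ovary, against 114 and 114 FPKM in OSS. Ribosome biogenesis factors had 6 of 23 lower, 2 with 1 library left out, and 1 higher, mod, with 387 and 384 FPKM in ovary, against 214 and 233 FPKM in OSS; median-ratio scaling gave 2 against 5. Apoptosis genes had 2 of 16 higher and 6 lower (0 and 1 to 2 with 1 left out; 0 against 4 when scaled by median ratios). The effector caspase Ice had 45.6 and 45.1 FPKM in ovary, against 77.4 and 79 FPKM in OSS.

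Chromatin regulators leaned to the ovary. Of 21 genes of heterochromatin and silencing, 12 were higher and 3 lower (8 to 11 and 2 with 1 left out; median 0.53). G9a, a histone H3 lysine methyltransferase, had 106 and 110.5 FPKM in ovary, against 12.3 and 12.2 FPKM in OSS (3.04 (SE 0.11, adjusted p = 6.33e-06)), and wde, the cofactor of the methyltransferase eggless, had 53 and 54.7 FPKM in ovary, against 10.7 and 10.7 FPKM in OSS. The demethylase gene Kdm4A had 67.6 and 72.7 FPKM in ovary, against 14.7 and 14.7 FPKM in OSS. In contrast Su(var)205, which encodes HP1a, was lower in ovary with 303 and 276 FPKM in ovary, against 494 and 515 FPKM in OSS. Of 23 Polycomb and trithorax genes, 11 were higher and 2 lower (8 to 9 and 0 to 1 with 1 left out). Genes of both opposing groups were among those higher. trx had 41.7 and 45.1 FPKM in ovary, against 11.5 and 12.4 FPKM in OSS and ash1 was higher by 1.38, and on the Polycomb side Pc had 56.7 and 55.5 FPKM in ovary, against 16.5 and 21.3 FPKM in OSS and Psc was higher by 1.42.

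Cell division genes lay near the all-gene median. Of 26 replication genes, 6 were higher and 2 lower (3 to 5 and 0 to 1 with 1 left out), with a median of 0.05. Orc1, of the origin recognition complex, had 80.3 and 76.8 FPKM in ovary, against 39.9 and 34.8 FPKM in OSS. dup, the licensing factor needed for chorion gene amplification, had 111 and 107 FPKM in ovary, against 59.5 and 54.6 FPKM in OSS. Of 35 spindle and kinetochore genes, 12 were higher and 6 lower (7 to 8 and 2 to 6 with 1 left out), with a median of 0.04. The centromere genes Cenp-C and cal1 were higher in ovary: Cenp-C had 73.1 and 71.2 FPKM in ovary, against 19.7 and 18.4 FPKM in OSS, and cal1 was higher by 1.52. asp, a spindle pole protein, had 100.4 and 97.7 FPKM in ovary, against 30.9 and 32.3 FPKM in OSS. dgt2, an augmin subunit, was lower in ovary with 62.9 and 51.2 FPKM in ovary, against 148 and 149 FPKM in OSS.

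Of 27 eggshell genes, 25 were higher in ovary and 0 lower (23 and 0 with 1 left out), at a median log2 difference of 6.77. Among the chorion proteins, Femcoat had 347 and 271 FPKM in ovary, against 0.49 and 1.28 FPKM in OSS. The group also included the crosslinking enzymes of the vitelline layer. Of these yellow-g had 77 and 72.1 FPKM in ovary, against 0.229 and 0 FPKM in OSS. yellow-g2 had 136 and 122 in ovary and 0 and 0 in OSS FPKM and so was listed at 0 in OSS. dec-1, in contrast, was found in both sources, with 442 and 403 FPKM in ovary, against 60.6 and 61.3 FPKM in OSS, a difference of 2.77 (SE 0.25, adjusted p = 0.000207).

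Some transcripts were detected in one source alone. Taking 1 FPKM or more in both libraries of one source and below 0.1 in both of the other, 79 genes were detected in ovary alone and 168 in OSS alone, beside 7421 at 1 FPKM or more in all 4 libraries and 808 below 0.1 in all 4. Of the 79, 48 were also at 1 FPKM or more in both carcass libraries and 8 in both embryo libraries. Of the 168, the numbers were 40 and 13. Among all 13892 genes, 9724 and 10986 reached 1 FPKM in carcass replicates 1 and 2, each library taken alone. In embryo replicates 1 and 2 the numbers were 6810 and 8062. An exact 0 may also be a failed estimate. Outside eggshell genes, the ovary set included the mucin gene Mur11Da, with 104 and 99.7 in ovary and 0 and 0 in OSS FPKM, the immune-induced gene IM14, with 167 and 30.8 in ovary and 0 and 0 in OSS FPKM, and the zinc transporter ZnT35C, with 52.8 and 50.8 in ovary and 0 and 0 in OSS FPKM. In carcass IM14 stood at 10020 and 9681 FPKM, against 4.0 and 0.259 for Mur11Da and 4.02 and 8.76 for ZnT35C. The OSS set included Him, an inhibitor of muscle differentiation, with 0 and 0 in ovary and 30.7 and 30.1 in OSS FPKM, and CG15323 and CG42852, with OSS means of 304.2 and 280.4 FPKM and 0 in both ovary libraries.

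Among the genes outside the lists with the largest differences, the forkhead genes croc and bin, factors of head and visceral mesoderm in the embryo, had 0.256 and 0.126 in ovary and 96.1 and 106 in OSS FPKM for croc and 0.359 and 0 in ovary and 65.3 and 65.9 in OSS FPKM for bin, and their differences were -6.42 and -5.84. The netrin receptor gene unc-5 had 0.29 and 0.307 FPKM in ovary, against 66.8 and 64.8 FPKM in OSS, the drug transporter gene Mdr49 had 0.407 and 0.441 FPKM in ovary, against 121 and 114 FPKM in OSS, and Rpt6R, a paralog of a proteasome ATPase known from testis, had 0.637 and 0.235 FPKM in ovary, against 77.2 and 76.1 FPKM in OSS. On the ovary side CG13083 had 479 and 466 FPKM in ovary, against 0 and 1.09 FPKM in OSS, and Adh, alcohol dehydrogenase, had 299 and 312 FPKM in ovary, against 0.148 and 1.0 FPKM in OSS. Genes outside the lists were named by size only where the 2 groups did not overlap, so the lack of overlap here is not a finding. Adh averaged 1928 FPKM in the carcass libraries, so its RNA was far more abundant there than in ovary. Of the 156 genes higher in ovary by 4 or more on the log2 scale, 43 were at 10 FPKM or more in both embryo libraries and 73 in carcass. Of the 149 lower by as much, the numbers were 0 and 51. The share of all genes at that limit was not computed, so these numbers are description only.

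Chromosome 4, the small and largely heterochromatic chromosome of Drosophila, had a higher median than the other arms; this was seen after the data were examined and is given without a test. Genes were placed on arms by name with the Release 6 RefSeq annotation, which matched 10949 of the genes tested. Of 75 chromosome 4 genes tested, 40 (53.3%) were called higher in ovary and 9 (12%) lower, beside 18.9% and 23.0% of all matched genes. Their median log2 difference was 0.60 (quartiles -0.00378 to 1.20), against -0.09 for X, between -0.18 and -0.14 for the arms of chromosomes 2 and 3, and -0.15 for all matched genes. Each of the 4 pairs of 1 ovary and 1 OSS library gave a median between 0.57 and 0.65. The median was between 0.60 and 0.88 under every alternative. Chromosome 4 genes made up 1.03% and 1.05% of the summed FPKM of matched genes in ovary, against 0.709% and 0.746% in OSS.

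Chromosome 4 genes called higher in ovary had varied known functions. bip2, a subunit of the general transcription factor TFIID, had 84.2 and 89.2 FPKM in ovary, against 19.7 and 23.2 FPKM in OSS (1.97 (SE 0.14, adjusted p = 6.77e-05)). Mitf, a regulator of lysosomal genes, had 127 and 133 FPKM in ovary, against 34.9 and 36.6 FPKM in OSS, and the translation initiation scaffold eIF4G had 215 and 228 FPKM in ovary, against 78.7 and 94.5 FPKM in OSS. CG32016, the 4E-T protein that binds the cap-binding factor, had 115 and 121 FPKM in ovary, against 35.4 and 40.5 FPKM in OSS. Receptors and a ligand were among them as well. plexA and plexB, the semaphorin receptors, were higher by 1.13 and 1.32, and the receptor Eph and its ligand Ephrin by 1.1 and 1.2. gw, an effector of microRNA silencing, had 127 and 126 FPKM in ovary, against 74.1 and 82.4 FPKM in OSS. The genes lower in ovary included Kif3C, a kinesin, with 5.55 and 3.99 FPKM in ovary, against 26 and 26 FPKM in OSS. Against the same OSS libraries the carcass gave a chromosome 4 median of 0.87 (all matched genes -0.54) and the embryo 0.19 (all -0.94); the embryo against ovary gave -0.18 (all -0.59). These contrasts share libraries and are not independent of each other.

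**Figure D5:**
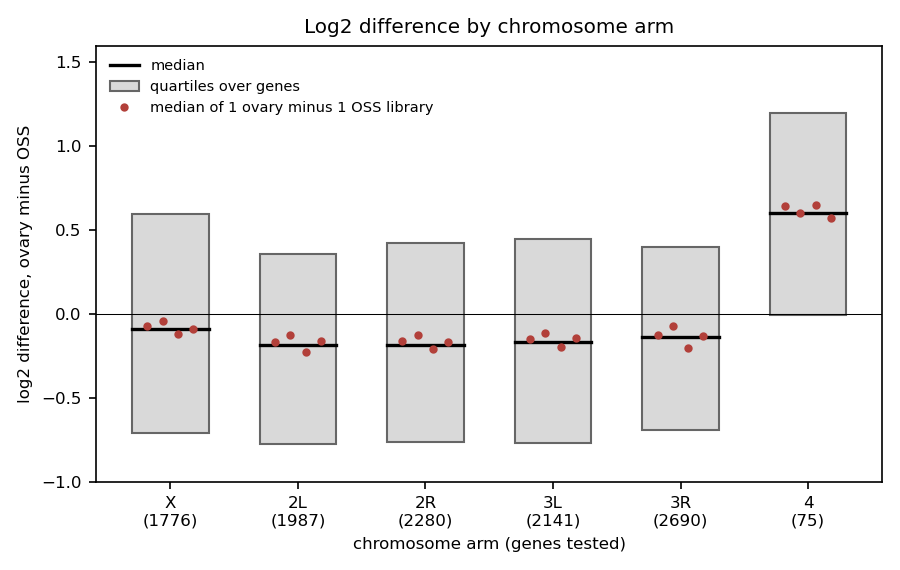
Log2 difference, ovary minus OSS, of the genes tested on each chromosome arm; the box spans the quartiles, the line is the median, and points are the medians of the 4 pairs of 1 ovary and 1 OSS library. The arms of chromosomes X, 2 and 3 have medians between -0.18 and -0.09, and chromosome 4 has 0.60.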

How the data were processed

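Total RNA was extracted with TRIzol, and 5 µg was depleted of ribosomal RNA with RiboZero Gold and made into libraries with ScriptSeq V2, per the labels' protocols. Per the submitters' processing notes, the authors used the dm3 build, CASAVA 1.3, Bowtie, TopHat and Cufflinks; no source used here gives the transcript annotation or the strand setting. The deposited FPKM values are the authors', 1 per gene name and library. A deposited score column of the ovary transposon tables was used only for its genome-mapped read total. In carcass replicate 1, 1070 deposited entries, and in carcass replicate 2, 5, are not numbers and were treated as missing. No sample column was left without a mapped sample (0 such columns).

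Values were fitted as log2(FPKM + 1) with limma 3.58.1 in R 4.3.3 (empirical Bayes with a trend, 2-sided), in 1 fit over 8 tissue libraries in 4 groups of 2, with 4 residual degrees of freedom, for genes at 1 FPKM or more in at least 2 libraries. FPKM are not counts, so no count model and no counting interval was used; their steps give relative depth only. Calls required a Benjamini-Hochberg adjusted p below 0.05. The pipeline was tested on simulated data. The comparison, its 58 gene lists and the named genes were chosen with earlier results of these data known. From each list, up to 3 called genes in each direction by size, at a mean of 5 FPKM or more in the higher group, every member of the family lists, up to 20 called genes each way outside the lists, and members at 0 in one group could be named; the other genes named were chosen after their values were seen. Genes named by size of difference also had to show no overlap between the 2 groups. Names and arms come from RefSeq, Release 6. Coordinates and sequences were not used here. The alternatives were a pseudocount of 0.1, no filter, a filter on the 4 libraries, 2 other scalings, a fit over the 4 libraries alone, a replicate block and leaving out each library.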

Additional observations from a re-analysis of the deposited data

How the results depend on the processing

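The 4796 calls (2156 higher in ovary, 2640 lower) ranged from 3044 to 3233 with 1 library left out, with 1513 to 1524 higher and 1530 to 1718 lower; those fits hold fewer samples. The fit over the 4 libraries alone, which leaves out the carcass and embryo libraries, called 7165 genes, 2983 higher and 4182 lower. The counts were 3987 with a pseudocount of 0.1, 4526 of 13892 genes without a filter, 4955 of 9559 with a filter on the 4 libraries, 4858 with quantile-normalized values and 4445 with median-ratio-scaled ones, and the share of calls that were higher in ovary, 44.95%, was at most 50.53% across them. Of 767 called genes that stand in a list, are named or lie on chromosome 4, 486 kept their call under each alternative and none changed direction. Genes detected in one source alone, 79 in ovary and 168 in OSS at a limit of 1 FPKM, were 33 and 43 at a limit of 5 FPKM.

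The labels number the replicates of both groups and do not say whether the numbers pair the samples. The deviations of same-numbered ovary and OSS libraries from their group means correlated at -0.00798 across genes, so no shared effect was seen. With 2 libraries in each group this cannot settle whether the numbers pair the samples. A replicate block gave 4566 calls, 2059 higher and 2507 lower. Depth limits low genes most, since the FPKM files hold no counts and a difference at or near 0 in ovary replicate 2, the shallower of its pair, cannot be told from missed reads.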

Other observations

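Some called genes stood next to each other in the genome. In the gene order of the Release 6 annotation, in which 12918 of 13911 protein-coding genes matched a name in the files, 30 runs of at least 4 consecutive genes were called the same way with a log2 difference of 1 or more, 10 runs higher in ovary and 20 lower. In 7 of these runs, 4 higher and 3 lower, every gene was also called under each alternative, and in the others at least 1 gene was not. This was noticed after the data were examined, and no test was made. The longest higher run held 10 genes around the X-linked chorion cluster, from Sptr over Cp36 and Cp38 to otu and CG33181, of which 8 kept their call under each alternative. At its edge otu had 169 and 177 FPKM in ovary, against 0.504 and 0.138 FPKM in OSS. A second, of 9 genes, lay on chromosome 4, from bt to CG32016, and 8 of these kept their call. The longest lower run held 8 genes around Egfr, of which 3 kept their call, and CG30288 in it had 0.306 and 0.451 FPKM in ovary, against 33.5 and 31.7 FPKM in OSS. The 5 genes from Cp18 to Prm, around the chorion cluster of chromosome 3, were all higher and all kept their call. Another higher run held 5 neighbouring genes, IM2 to CG15068, of which 3 kept their call, and CG15068 had 70.2 and 34.5 in ovary and 0 and 0 in OSS FPKM. In the carcass libraries CG15068 stood at 3101 and 4928 FPKM. Reads of overlapping neighbours cannot be told apart here.

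The most abundant entries of both sources were short RNAs. snmRNA:331 had 25651 and 26405 FPKM in ovary, against 36277 and 33936 FPKM in OSS and was not called (adjusted p = 0.0632). RpL41, a very short ribosomal protein gene, had 5463 and 6221 FPKM in ovary, against 6798 and 6668 FPKM in OSS. snmRNA:357 had 584 and 651 FPKM in ovary, against 0 and 0 FPKM in OSS, so it was listed at 0 in OSS. Its carcass values were 2758 and 3525 FPKM. snmRNA:254 stood at 4199 FPKM in OSS replicate 1 and at 0 in the other ovary and OSS libraries, and was not tested.

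Among genes related to ribosomal proteins, RpS19b had 1.28 and 0 FPKM in ovary, against 36 and 35.3 FPKM in OSS and RpS10a had 0.606 and 0 FPKM in ovary, against 29.6 and 23 FPKM in OSS. The RpS19b log2 difference was -4.60 and, not called, -4.01 without ovary replicate 2, -4.59 without OSS replicate 1 and -4.62 without OSS replicate 2. The RpS10a log2 difference was -4.42 and, not called, -4.08, -4.24 and -4.59 in the same order. Both calls were also lost with a pseudocount of 0.1 and after quantile normalization. The ovary values lay below those of OSS for both genes.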
